A study of Mus musculus with 2 samples.

Results

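DNase I hypersensitive sites (DHSs) that lay inside exons of protein-coding genes and away from their starts were described in mouse adrenal gland. A DHS is a short stretch of open chromatin that the enzyme DNase I cuts often, and a DHS height is the deposited signal at that site, in units whose step differs between libraries. A member was a replicate 1 DHS of the longer deposited list that lay on an autosome, shared at least 1 bp with a replicate 2 DHS of the longer list, and had its centre in an exon of a GENCODE M21 protein-coding gene more than 1 kb from every protein-coding transcript start. The rule was met by 4268 DHSs, which are 5.37% of the 79479 autosomal DHSs found in both libraries. Replicate 1 had 127253 autosomal DHSs in all and replicate 2 had 151105. The presence of a DHS in both lists and its position chose the members, so these are not results. By the base at their centre, 2093 members lay in coding sequence (49.0%), 88 in a 5′ UTR (2.06%) and 1304 in a 3′ UTR (30.6%). The other 783 (18.3%) lay in exons that belong to protein-coding genes but only to their transcripts of other types, such as retained-intron transcripts, and are called other exon DHSs below. The rule sets its limits sharply. The 3 members nearest to the distance limit lay 1001 bp from a start, with heights of 0.642, 1.07 and 1.09 in replicate 1 and 1.25, 0.569 and 0.808 in replicate 2. The 3 exonic DHSs just outside lay 1000, 1000 and 999 bp from a start, with heights of 3.46, 0.942 and 2.55 in replicate 1 and 2.71, 0.995 and 1.20 in replicate 2.

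The study comprises 2 libraries of adrenal gland tissue from male B6CASTF1/J mice aged 25 days, an F1 hybrid of the B6 and CAST strains, with no treatment named. The labels give them as biological replicates of 1 group, with the same donor code, so no test between groups was possible and values are given for replicate 1 and then replicate 2. Nuclei of the whole gland were used, so fewer cells with an open site and less cutting per cell cannot be told apart. Heights were whole multiples of 1 step in each library, 0.00833 and 0.00888, which corresponds to totals of 120.0 M and 113 M counts if heights are read as CPM. Promoters of 9 of 10 adrenal cortex markers were open in both libraries, all but Hsd3b1, and of 6 of 8 chromaffin cell markers. Among other cell types, promoters were open for 3 and 4 of 4 endothelial markers, for 0 and 3 of 4 lymphocyte markers, for 0 of 3 macrophage markers in both, and for 1 of 5 liver markers in both (Alb, Apoa1, Serpina1a and Ttr were closed in both libraries).

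Exons are known mainly as the sequence that ends up in mature RNA, and coding exons also carry the genetic code, but transcription factors can bind within them. Open chromatin in exons can mark an enhancer, an unannotated start, a site of the insulator protein CTCF or a CpG island, a CpG-rich stretch that often stays free of DNA methylation. In the adrenal cortex, the nuclear receptor NR5A1 (steroidogenic factor 1) binds an extended nuclear receptor motif and drives genes of steroid synthesis.

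The coding members of greatest mean height that hold a CTCF motif touching a deposited footprint in both libraries show what such a site looks like inside a gene. A footprint is a run of bases protected from cutting within a DHS. Each line gives 30 bases of the mm10 reference, 5′ to 3′ on the motif's strand, with the match to the CTCF letters CCANNAGNNGGC in capitals.
Spi1 CTCF: gatgacctaCCAGAAGATGGCgcgcgcgct
Rasip1 CTCF: ggtcctgcaCCAGCAGAGGGCgctccgcgt
Tpbgl CTCF: gcagccaggCCAGCAGGGGGCgcgaggtgc
Pgls CTCF: gtccaggaaCCAGCAGAGGGCgcccgtgcg
Hey1 CTCF: cccaagccgCCACTAGGGGGCgctcgcaag
Adgre5 CTCF: gcatcacggCCACCAGGCGGCagcgcaggc
The Spi1 site lies at chr2:91115247-91115276 on the plus strand, in the last of 5 exons of the gene for PU.1, a transcription factor of myeloid and B cells, and its DHS had heights of 20.6 and 7.88. The Rasip1 site lies at chr7:45628950-45628979 on the minus strand, in exon 3 of a gene needed for blood vessel lumens, with heights of 16.2 and 10.4. The Hey1 site, chr3:8664683-8664712, is in the last of 5 exons of a Notch target gene, with heights of 12.8 and 3.21. The Tpbgl site is at chr7:99625895-99625924 (heights 13.4 and 9.71), the Pgls site at chr8:71596108-71596137 (14 and 8.74) and the Adgre5 site at chr8:83724965-83724994 (9.67 and 5.95).

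The corresponding NR5A1 sites, matches to CAAGGTCA, sat in lower DHSs.
Vamp5 NR5A1: agcaccaagccCAAGGTCAaggctgcgagg
Lamb1 NR5A1: gtcaccgggctCAAGGTCAgtcgatggggt
Cpne1 NR5A1: gagagctggacCAAGGTCAcgcaatgagcc
Supt5 NR5A1: aaggacattgtCAAGGTCAtcgatggccct
Gramd1a NR5A1: ctccaagggctCAAGGTCAcatctgggagg
Prss27 NR5A1: aaaaagactccCAAGGTCAgcagcgcctgg
Vamp5, a gene of vesicle traffic in muscle, had the DHS of greatest mean height among these, at 3.48 and 2.92 (site chr6:72370335-72370364, plus strand), and its match lies outside the coding sequence of the transcript used, beside exon 2. Lamb1, which encodes a laminin chain, followed at 3.32 and 2.99, the taller in replicate 2 (chr12:31300037-31300066), and there the match runs across the 3′ end of exon 16 into the intron. Of 63 NR5A1 matches in coding members, 7 crossed the 3′ end of their exon, where the AG and GT of the motif coincide with the letters around a splice donor. The DHSs at the Cpne1, Supt5, Gramd1a and Prss27 sites had heights between 1.54 and 2.40 in replicate 1 and between 1.23 and 2.48 in replicate 2.

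Coding members that match NRF1, an activator of CpG-rich promoters of housekeeping and mitochondrial genes, and REST, a repressor of neuronal genes, were chosen after their values were seen.
Sptbn4 NRF1: cgtcgagctcGCGCTTGCGCagcaggaagc
Apold1 NRF1: gccaagtgctGCGCCTGCGCgaagtggccc
Hes3 REST: agggaaggCAGCACCACGGACAGcgccaac
The Sptbn4 site (chr7:27361589-27361618) lies in exon 33 of 36 of a spectrin gene of neurons, in a DHS of heights 23.2 and 22.9. The Apold1 site is at chr6:134983676-134983705, in a DHS of 14.8 and 9.34. Hes3, a gene of neural progenitors, has its site at chr4:152287095-152287124, in a DHS of 5.12 and 2.02.

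Exonic sequence held more DHSs per base than introns or intergenic sequence, and far fewer than promoters. Coding sequence over 1 kb from starts held 74.1 shared DHSs per Mb (95% Poisson interval 70.9 to 77.3), against 28.1 per Mb in introns, 18.4 between genes and 391 within 1 kb of starts. The density was 123 per Mb in 5′ UTRs, 43.0 in 3′ UTRs and 43.8 in other exons. Coding sequence thus held 2.64 times as many as introns per base, and 3′ UTRs 1.53 times as many. With every DHS of 1 library counted, shared or not, the ratio of coding sequence to introns was 2.86 in replicate 1 and 2.83 in replicate 2.

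The excess of coding sequence over introns was present at every distance from a start but was not found when base composition was held equal. Between 1 and 2 kb from the nearest start, coding sequence held 189 shared DHSs per Mb and introns 65.5. Beyond 50 kb the densities were 52.7 and 18 per Mb. When 150 bp stretches were grouped by GC content, coding sequence held 87.0 per Mb at 55% to 60% GC, against 173 in introns, and 193 per Mb at 60% to 65% GC, against 327. Between 45% and 50% GC the classes were close, at 20.2 and 22.3 per Mb, and under 40% GC there were only 3 coding members. Above 65% GC coding sequence held 702 per Mb and introns 643. The 2093 coding members were 0.692 of the 3026 that coding bases would hold at the intron density of their own GC group. Grouped by GC and distance together the ratio was 0.604, and grouped by distance alone it was 2.19. With all DHSs of each library the ratio at equal GC was 0.802 in replicate 1 and 0.951 in replicate 2, so the size of the deficit moved with how DHSs were counted while its direction did not. When the whole DHS had to lie in 1 class, the ratio of coding sequence to introns was 1.19 over all bases and 0.328 at equal GC. The 3′ UTRs, at 1.09, and other exons, at 1.11, lay close to introns of the same GC. The 5′ UTRs held 88 DHSs where 47.2 would be present at the intron density of the same GC, a ratio of 1.86, and 1.22 with distance also equal.

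**Figure D1:**
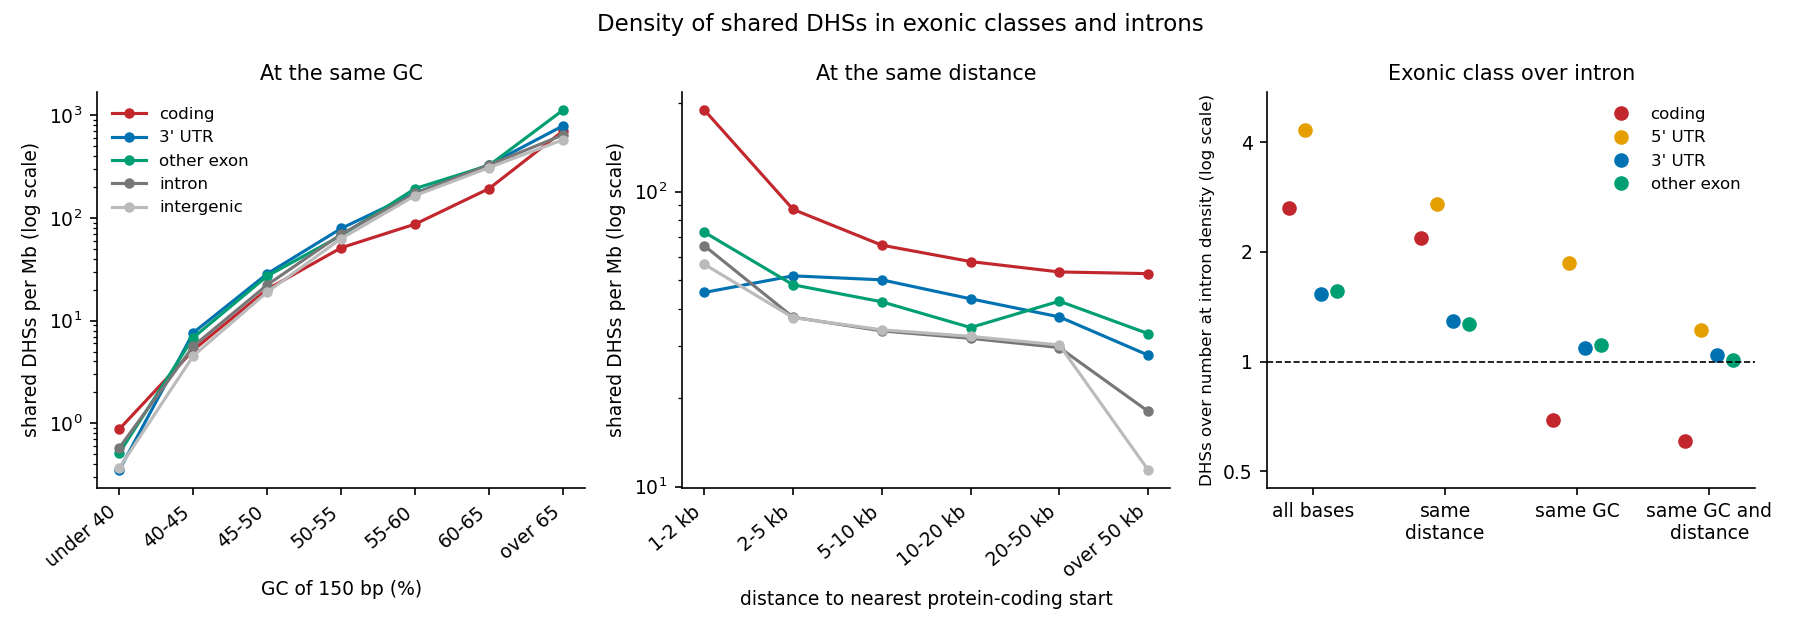
Shared DHSs per Mb by GC content of 150 bp (left) and by distance to the nearest protein-coding start (middle), on log scales, with 1 line per class, and the number of exonic DHSs over the number at the intron density (right, log scale, dashed line at 1). Coding sequence lies above introns at every distance, at 189 and 65.5 per Mb between 1 and 2 kb, and below them at 55% to 65% GC, so its ratio is 2.64 over all bases and 0.692 at the same GC.

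Within coding sequence the density went up with exon length and was lower in internal exons than in first, last or single exons. Coding bases in exons under 100 bp long held 33.6 members per Mb, and those in exons over 1000 bp held 114. Bases of internal exons held 56.6 per Mb, of last exons 107, of first exons 284 and of the exons of single-exon transcripts 261. First exons count here only where they extend over 1 kb from every start. GC content and distance to a start were not held equal in these counts. Coding sequence of all exons held 189 per Mb between 1 and 2 kb from a start and 52.7 beyond 50 kb.

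Median heights of coding members were much like those of intron DHSs. Those of 3′ UTR and other exon members were somewhat higher, and those of 5′ UTR members higher still. All were lower than those of promoter DHSs. The median height was 1.42 in replicate 1 and 1.15 in replicate 2 for coding members, 2.24 and 1.53 for 5′ UTR members, 1.65 and 1.27 for 3′ UTR members, and 1.55 and 1.24 for other exon members. With the shorter, stricter peak lists the median in replicate 1 was 2.56 for coding and 2.81 for 3′ UTR members. With every DHS of 1 library counted, shared or not, the medians were lower, at 0.737 without replicate 1 and 0.883 without replicate 2 for coding DHSs and at 0.897 and 1.08 for 3′ UTR DHSs. Intron DHSs had medians of 1.36 and 1.12, intergenic DHSs 1.37 and 1.08, and promoter DHSs 4.25 and 2.98. Coding members spanned heights from 0.192 to 28.6 in replicate 1 and from 0.204 to 24.7 in replicate 2, and the tallest 3′ UTR members reached 54.8 and 36.1. Replicate 1 coding DHSs with no partner in replicate 2 were lower, with a median of 0.60 over 1881 DHSs. Of all replicate 1 coding DHSs 52.7% were shared (95% Wilson interval 51.1 to 54.2), against 57.1% of intron and 81.3% of promoter DHSs, and 60.5% of 3′ UTR DHSs.

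The 2 libraries gave the members similar heights, with replicate 1 higher on the deposited scale. The median log2 ratio of replicate 1 over replicate 2 was 0.34 over members (SD 0.69 across members) and 0.34 over all shared DHSs. The sign of this median depended on the scaling, being -0.06 with each height divided by its library's sum, and -0.10 on ranks. After the median of all shared DHSs was subtracted, 346 members (8.11%) were over 2-fold higher in replicate 1, where 8.12% of all shared DHSs were, and 251 (5.88%) were over 2-fold lower, where 6.35% of all were. Both shares are near those of all shared DHSs, so they are no result about the members. Pearson's r of log2 height across members was 0.838, against 0.892 across all shared DHSs, whose heights span a wider range. It was 0.789 across intron, 0.813 across intergenic and 0.949 across promoter DHSs. These are descriptions over sites of the same 2 libraries.

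**Figure D2:**
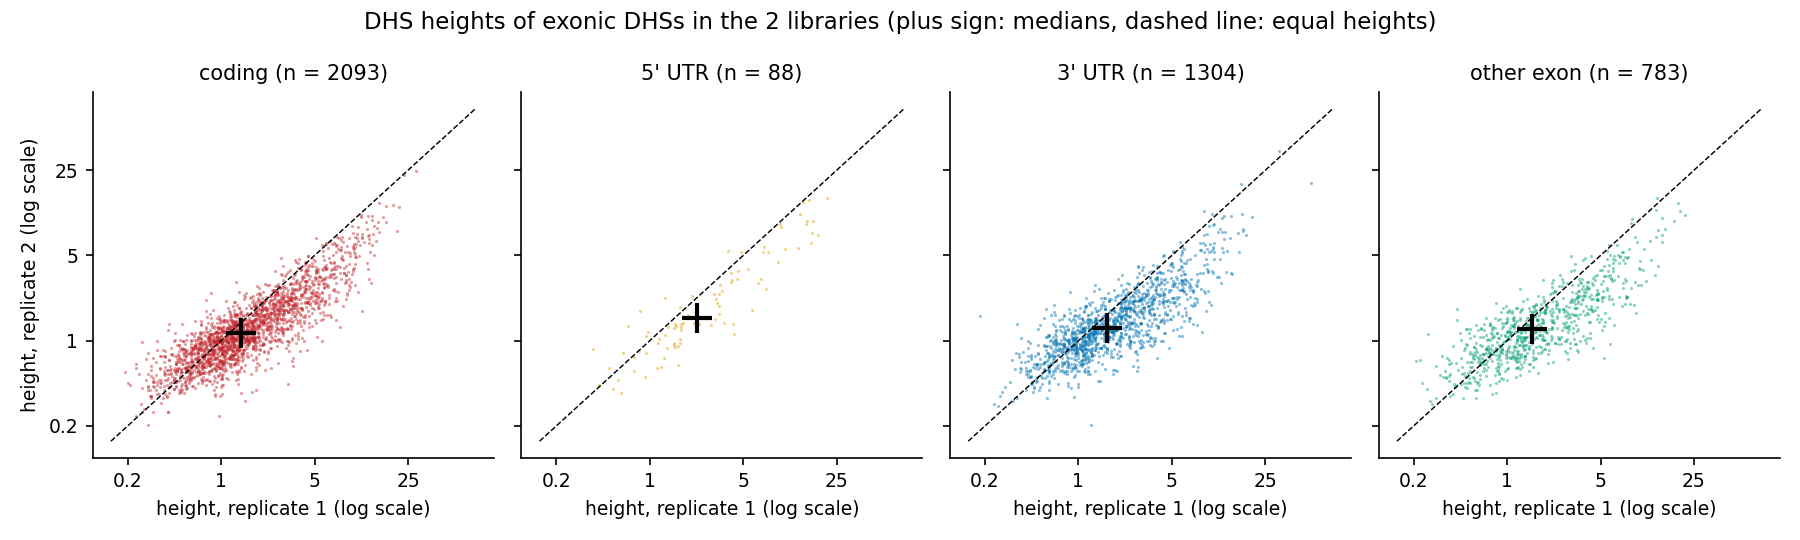
Height of each member in replicate 1 (x axis) and replicate 2 (y axis), log scales, by exonic class, with the median as a plus sign and equal heights as a dashed line. The medians lie below the dashed line in all 4 classes, at 1.42 and 1.15 for coding members and 1.65 and 1.27 for 3′ UTR members.

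Footprints touched members about as often as all shared DHSs. The stricter list held members less often than all shared DHSs, but about as often as intron and intergenic DHSs. A footprint touched 87.2% of members in replicate 1 and 78.2% in replicate 2, against 87.0% and 77.0% of all shared DHSs. For coding members the shares were 84.9% and 76.1%, for 3′ UTR members 90.3% and 80.4%, and for intron DHSs 89.1% and 77.9%. CpG-rich coding members held a footprint in 82.4% and 75.5% of cases, although they were taller (medians 1.76 and 1.29) than the other coding members, of which 86.5% and 76.4% held one (medians 1.31 and 1.07). The shorter, stricter peak list contained 77.6% of members in replicate 1 and 58.9% in replicate 2, against 81.8% and 66.6% of all shared DHSs. It held 75.5% and 56.9% of intron, 77.9% and 60.5% of intergenic, and 93.2% and 84.6% of promoter DHSs. The 4268 members had 4219 different partners in replicate 2, since 96 members shared a partner with another member.

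Coding members lay across exon ends about as often as within exons. Of 2093 coding members, 1007 (48.1%, 46.0 to 50.3) contained at least 1 splice junction of the transcript used, 653 an acceptor and 594 a donor, and 240 spanned a whole exon. Heights were alike, with medians of 1.43 and 1.16 for members that contained a junction and 1.42 and 1.14 for those that did not. The exon used was internal for 60.7%, last for 30.7%, first for 4.01% and the transcript's sole exon for 4.59%. Among 3′ UTR members, 95% were in the last exon and 1.76% contained a junction.

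Positions were also read against the genetic code. The first base of a footprint in coding members fell on codon position 1 in 33.6% of 3735 footprints in replicate 1 and 35.4% of 2449 in replicate 2. The shares were 36.5% and 35.9% on position 2 and 29.9% and 28.7% on position 3, so position 3 was the least frequent in both libraries. The part that base composition or the cutting preference of DNase I has in this was not tested. The CTCF motif began on codon position 1 in 18% of 161 matches in coding members (12.8 to 24.7), and in 18.9% of 549 matches in coding exons with no DHS nearby. The intervals of the 2 sets overlapped at each codon position. Orientation differed more. In coding members 38.0% of CTCF matches were on the gene's own strand (31.2 to 45.3, 68 of 179), against 54.4% of 579 matches in DHS-free coding exons (50.3 to 58.4), and the intervals do not overlap. NR5A1 matches were on the gene's strand in 47.6% and 50.2%. They began on codon position 2 in 55.1% of 49 matches in coding members (41.3 to 68.1) and on position 3 in 34.7%, whereas in DHS-free coding exons 24.2% of 480 began on position 2 and 67.1% on position 3.

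CpG-rich sequence was much more common in coding members than in intron DHSs. A 150 bp window at the centre was called CpG-rich when its GC content was over 50% and its ratio of observed to expected CpG over 0.6. This held for 38.5% of coding members, 44.3% of 5′ UTR members, 10.4% of 3′ UTR members and 15.8% of other exon members. The shares were 5.83% of intron DHSs, 71.8% of promoter DHSs and 11.2% of 50324 windows from coding exons with no DHS nearby. Median GC content was 60.7% in coding members and 52.0% in these DHS-free windows. Soft-masked repeats covered most of the window in 0.984% of members.

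Some members lay near starts that the rule did not count. A RefSeq mRNA start was within 1 kb of 5.06% of coding members, 37.5% of 5′ UTR members, 0.767% of 3′ UTR members and 11.4% of other exon members. A GENCODE start of any transcript type or gene type lay within 1 kb of 22.2% of members, namely 21.5% of coding, 31.8% of 5′ UTR, 7.98% of 3′ UTR and 46.9% of other exon members. For intron DHSs the RefSeq and GENCODE shares were 3.95% and 8.43%, and for intergenic DHSs 1.96% and 8.65%. By the GENCODE count the label "away from promoters" holds for most coding and 3′ UTR members, and less well for the 5′ UTR and other exon members. The RefSeq and GENCODE counts were not combined, and for 5′ UTR members the RefSeq share was the higher.

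CTCF and AP-1 letters were less common in coding members than in 3′ UTR members and intron DHSs, and SP/KLF and NRF1 letters were more common than in intron DHSs, each with 95% intervals that do not overlap. The CTCF letters were present in the central 150 bp of 8.31% of coding members (7.21 to 9.57), 15.2% of 3′ UTR members (13.3 to 17.2), 11.5% of intron DHSs, 2.77% of promoter DHSs and 1.12% of DHS-free coding windows. The share of coding members moved with the list used, to 4.56% without replicate 1, 6.11% without replicate 2 and 11.7% with the shorter lists, and the other classes were not recomputed on these lists. Other exon members held the CTCF letters in 13.3% (11.1 to 15.8), an interval that overlaps that of 3′ UTR members. Coding members with the CTCF letters had median heights of 3.37 and 1.65, against 1.36 and 1.11 without. Of coding members with the letters, 60.9% had a match that touched a footprint in both libraries, against 67.2% in introns. AP-1 letters (TGANTCA), bound by Fos and Jun proteins, were present in 8.31% of coding members, 12.3% of 3′ UTR members and 17% of intron DHSs. NR5A1 letters were present in 3.01% of coding members (2.36 to 3.83), 2.68% of 3′ UTR members, 2.81% of other exon members, 4.05% of intron DHSs (3.81 to 4.31) and 0.962% of DHS-free coding windows. The intervals of the exonic classes overlap one another. That of coding members barely overlaps that of introns, and that of 3′ UTR members (1.94 to 3.71) lies below it. The match touched a footprint in both libraries in 12.7% of the coding members with it. SP/KLF letters (GGGCGG) were present in 15.8% of coding members and 9.28% of intron DHSs. NRF1 letters (GCGCNTGCGC) were present in 1.72% of coding members, 0.258% of intron DHSs, 5.64% of promoter DHSs and 0.115% of DHS-free coding windows, and the 36 coding members with them had median heights of 4.23 and 2.53, against 1.41 and 1.14. GATA letters (AGATAA) were present in 2.10% of coding members and 4.93% of DHS-free coding windows, so they were less common inside coding DHSs than outside them. Base composition was not held equal in these motif comparisons, and its part in them was not tested. Median GC content was 60.7% in coding members, 54.0% in intron DHSs and 52.0% in DHS-free coding windows. In all 17 motifs were searched on both strands, matches to different motifs may overlap, and a match is a description and not a binding site.

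**Figure D3:**
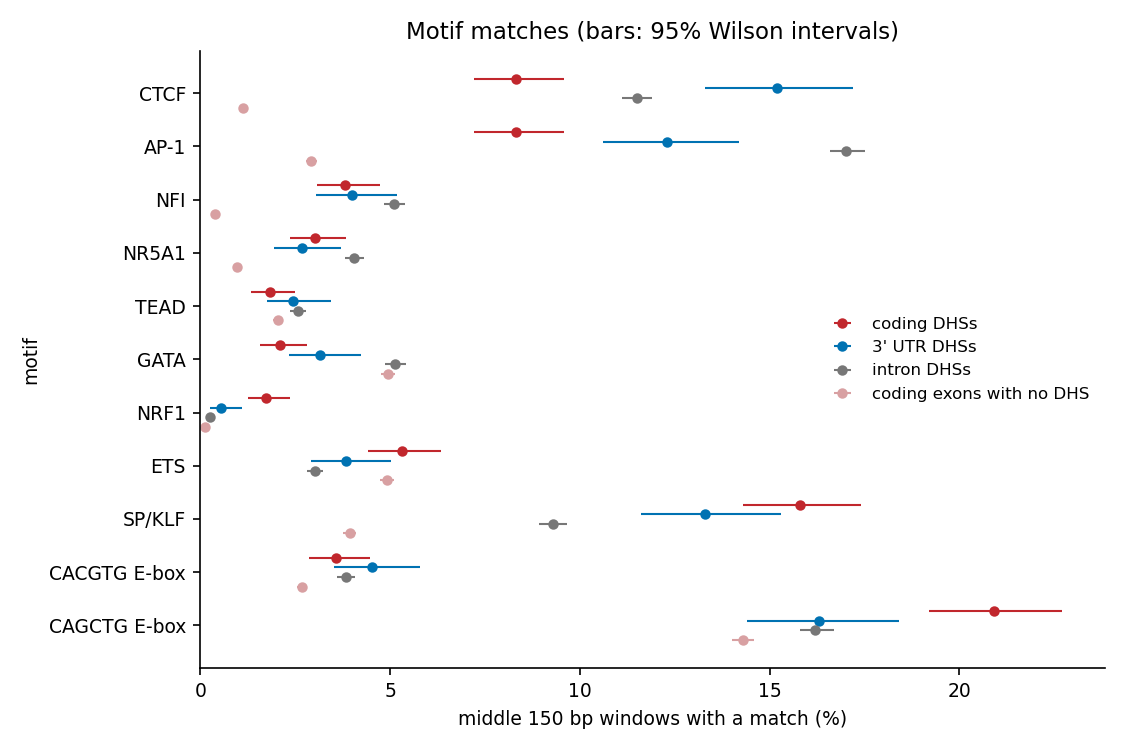
Percentage of central 150 bp windows with a match to each motif (x axis) in coding DHSs, 3′ UTR DHSs, intron DHSs and coding exons with no DHS, with 95% Wilson intervals as bars. CTCF and AP-1 matches are both present in 8.31% of coding DHSs, against 11.5% and 17% of intron DHSs and 1.12% and 2.92% of coding exons with no DHS.

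The 10 coding members of greatest mean height lay in genes of varied function. Angptl6, which encodes an angiopoietin-like secreted protein, had the tallest at heights of 28.6 and 24.7 (chr9:20878141-20878480, exon 2), although a RefSeq mRNA start lies 249 bp from its centre. Sptbn4 followed as given above, and then Inpp5b, an inositol phosphatase gene, at 21.3 and 12.5 (chr4:124751381-124751640, exon 7). Notch4, a Notch receptor of endothelium, had 19.2 and 13.0 in exon 30 (chr17:34587541-34587700). A GENCODE start of any type lay 157 bp from the centre of the Inpp5b member and 580 bp from that of Notch4. Crlf2, a cytokine receptor gene, had 17.2 and 12.8, and Zfp771, a zinc finger gene, 15.3 and 13.4. Rsad1 had 17 and 9.45 in an exon of 64 bp, and it alone among these 10 was not CpG-rich. Spi1, Rasip1 and Apold1 complete the 10. Among these 10 of varied function, Rasip1, Notch4 and Apold1 are endothelial genes, and the part of such cells in their heights was not tested. The Rasip1 promoter was open in replicate 2 and closed in replicate 1, where its member was taller on the deposited scale. The Spi1 DHS differed most between the libraries among these 10, by 1.38 on the log2 scale.

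The 3′ UTR member of greatest mean height, and the tallest in replicate 1, was in Lars2, the mitochondrial leucyl-tRNA synthetase gene, at 54.8 and 19.6 (chr9:123461921-123462080), with a 1.48 log2 ratio between libraries. Its middle 36 bases occur once in the nuclear reference and not in the mitochondrial one. Only exact matches of these bases were counted. Whether reads at the rest of the site come from similar sequence elsewhere, mitochondrial included, was not tested. Cers5, a ceramide synthase gene, had 31.5 and 36.1 (chr15:99735821-99736040), the tallest in replicate 2, and Ubqln1, of protein quality control, 16.5 and 19.4. Both were taller in replicate 2. The others were Unc13a (19.8 and 10.3), a gene of synaptic vesicle priming, Skap2 (16.6 and 11), Rtn2 (18 and 7.31), the agouti gene a (17.1 and 8.23), Vgf (16.9 and 8.01), which encodes a neuroendocrine peptide precursor, 1700008O03Rik (13.9 and 10.6, in an exon that overlaps Shank1) and Frmd8 (15.7 and 7.64).

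Among 5′ UTR members, Rap2b, a small GTPase gene, had 21 and 14.8 and a RefSeq mRNA start 14 bp away, while its GENCODE promoter was closed in both libraries. Pura, a gene of a DNA- and RNA-binding protein, had 15.5 and 14.2 with a RefSeq mRNA start 703 bp away. Arsa, the arylsulfatase A gene, had 13.9 and 13.7 and the nearest such start was 1193 bp away, while another GENCODE start lay 5 bp from its centre. Zfp503 had 16.7 and 9.66 with a start 731 bp away, and Asb6 18.2 and 7.31 with a start 61 bp away. The 5 tallest other exon members, taken after values were seen, were in Ubtf, Dbp, Tnks1bp1, Fmc1 and Gas2l1, with heights from 13.3 to 21.6 in replicate 1 and from 9.58 to 14.7 in replicate 2. A GENCODE start lay 289 bp from the Ubtf member, 138 bp from that of Dbp, 14 bp from that of Tnks1bp1 and 179 bp from that of Fmc1.

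Members were spread over 3295 of 20807 autosomal protein-coding genes (15.8%), and 2589 of these genes held 1. Genes with a member more often had an open promoter, 87.8% in replicate 1 and 85.7% in replicate 2, against 67.2% of genes without a member in both. Plec, which encodes the cytoskeletal linker plectin, held most, with 14 coding members over chr15:76174981-76181933. All 14 were low, from 0.250 to 0.558 in replicate 1 and from 0.302 to 0.915 in replicate 2, and 9 were CpG-rich. Tchh, the gene of the hair follicle protein trichohyalin, held 8 coding members with heights from 0.292 to 3.01 and from 0.391 to 2.31, all CpG-rich, while its promoter was closed in both libraries. Foxc1, a forkhead factor of mesenchyme, held 7, of which 5 were in the 3′ UTR, with heights from 1.17 to 4.0 and from 0.826 to 3.15. Ccnd2, Pcdh17 and Sobp held 6 each. The other genes with 5 were 2700081O15Rik, Cxxc4, Dst, Fzd8, Snx21, Sox4, Synpo, Tle3, Zfp36l2 and Zfp503.

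Genes of steroid synthesis held a member about as often as all genes, 3 of 17 (17.6%) against 15.8%. Star, whose product carries cholesterol into mitochondria, held 4. The coding one covers exon 2 and had heights of 2.03 and 1.43 (chr8:25809381-25809572), 1003 bp from the start and so just inside the limit. The 3 in its 3′ UTR had heights of 3.95 and 1.27, 3.65 and 0.942, and 2.36 and 1.38 (within chr8:25813741-25815220). Replicate 1 was taller at each, by 0.51 to 1.95 on the log2 scale. Cyp11b1, the 11-beta-hydroxylase gene, held a coding member at 1.72 and 1.33, and Cyp21a1, the 21-hydroxylase gene, one at 1.17 and 0.737. The middle 36 bases of both occur 2 times in the reference, so reads there could come from the other copy.

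Other adrenal genes held members of modest height. Of 15 regulators of the cortex 5 held one (33.3%). Cited2, a coactivator of adrenal development, had a coding member at 2.79 and 3.50, and Gata6, a GATA factor of the cortex, 2 at 1.3 and 1.19 and at 1.53 and 1.01. Nr5a1 had an other exon member at 1.57 and 1.73, and Prkar1a, a regulatory subunit of protein kinase A, a coding one at 2.10 and 2.02. Pde11a, a phosphodiesterase gene, had a 3′ UTR member at 6.44 and 2.21 and a coding one at 0.700 and 0.675. Of 20 genes of the cortical zones 5 held one, namely Cyp2f2, Kcnk3, Nr2f2, Pik3c2g and Wnt4, with heights from 0.992 to 2.13 in replicate 1. Among chromaffin genes, Phox2a, a transcription factor of sympathetic and chromaffin cells, held 2 coding members, at 0.708 and 1.35 and at 2.34 and 1.58, and a 3′ UTR member at 1.97 and 1.58. The last 2 share their partner in replicate 2. Slc6a2, the noradrenaline transporter gene, had one at 2.12 and 1.04. Ddc and Insm1 had 1 each.

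**Figure D4:**
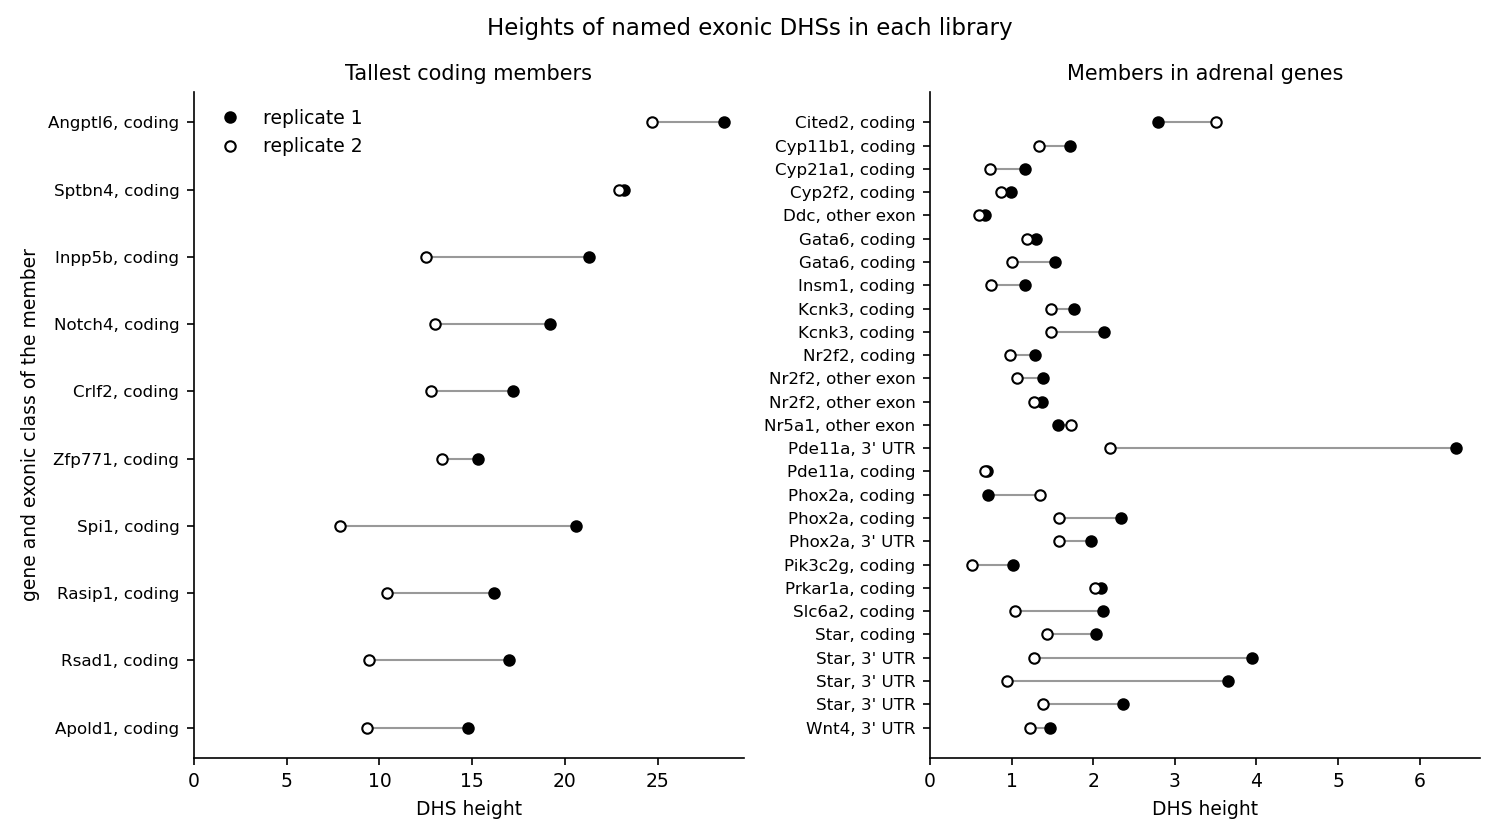
Heights of the 10 tallest coding members (left) and of members in genes of steroid synthesis, cortex regulators, cortical zones and chromaffin cells (right), replicate 1 as filled and replicate 2 as open circles. The tallest coding members reach 28.6 and 24.7, while those in adrenal genes stay at or below 6.44 in replicate 1 and 3.50 in replicate 2.

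Genes of the early response to stimulation held members most often among the lists. Of 20 immediate early genes 12 held one (60%). Jun had a 3′ UTR member at 8.84 and 6.04 and a coding one at 3.96 and 3.80, and Ier2 a 3′ UTR member at 10.3 and 9.13. Junb, Jund, Fosb, Klf2, Klf4, Dusp1, Fosl2, Myc, Nr4a2 and Nr4a3 were the others. The members in these 12 genes lay 1028 to 5619 bp from a protein-coding start, against a median of 7740.5 bp over all members. Of 20 clock genes 7 did (35.0%), with the tallest in Dbp, a transcription factor of the circadian output, at 12.4 and 8.20 in coding sequence and 21.6 and 10.7 in an other exon. A GENCODE start lay 123 bp from the coding Dbp member and 138 bp from the other. Of 20 cholesterol genes 6 did (30%), among them Srebf1 with 9.27 and 2.58 and Npc2 with 4.13 and 0.995, both in the 3′ UTR. Lists of tissues other than adrenal also held them, with 5 of 11 neuronal genes, 4 of 12 skeletal muscle genes and 3 of 12 liver genes. Families differed widely, from 8 of 16 Klf genes and 8 of 18 Sox genes, to 35 of 385 Zfp genes (9.09%), 10 of 1127 olfactory receptor genes (0.887%) and 0 of 6 Irx genes. Between these were 2 of 12 Tbx genes (16.7%). The Klf, Sox, Irx and Tbx families were taken after values were seen. Gene length, CpG content and distance of members from starts were not held equal between lists.

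Few members, like few of all shared DHSs, had a middle that occurs elsewhere in the reference, where only exact copies were counted. The middle 36 bases occurred more than once in the reference for 35 members (0.820%), 23 of them coding (1.10% of coding members). The share was 0.903% over all shared DHSs and 0.541% over intron DHSs. The tallest such members were a 3′ UTR member in Cyp4f17 at 9.21 and 4.25 and coding members in Fam136a at 4.28 and 4.35 and in C1rb at 4.34 and 2.64. Their heights are uncertain because the middle is repeated. Another 37 members lay in exons of more than 1 gene.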

How the data were processed

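DNase-seq files of 2 adrenal gland libraries were used, each with a longer and a shorter peak list, a list of footprints and FDR values along the genome. Per the file headers they are in mm10 and were made by the authors from each library's own alignments, with no pooling. Which aligner and callers made them, and at which thresholds, is not given in the sources used here. The height is the signal the authors deposited with each peak, and it came in whole multiples of 1 step per library, with the scaling behind that step not stated. The deposited FDR list holds q-values of at most 0.05, and every deposited footprint has the same FDR limit of 0.01, so footprints carry no score.

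Genes came from GENCODE M21 on GRCm38.p6, whose chromosomes have the mm10 lengths, and RefSeq starts and all printed sequences from the RefSeq annotation and genome of the same build. These letters are those of the reference strain, and CAST alleles were not examined. A centre that fell in several parts was counted as coding, then 5′ UTR, 3′ UTR and other exon, with the stop codon as coding. The transcript used for exon positions was of protein-coding type first, then principal, then longest. GC groups used fixed 150 bp tiles for the bases and centred 150 bp windows for the DHSs. DHS-free windows were 150 bp at the middle of coding exon parts of at least 150 bp, over 1 kb from starts and from every DHS of either library, with alternative forms of an exon counted separately. Shares of sites carry 95% Wilson intervals where given, and densities Poisson intervals. These intervals cover counting error only, since sites of 1 library are not independent animals. No p-value was computed.

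Named members were the 10 coding, 5 5′ UTR and 10 3′ UTR members of greatest mean height whose middle 36 bases occur once, the genes with the most members, the adrenal list genes with a member, and 6 CTCF and 6 NR5A1 matches in coding members of greatest mean height, leaving out chromosome 18 and repeated sites. Some items are not reported here. The members and gene lists were chosen with earlier results of these data known. The clock, cholesterol and immediate early genes were named by value after these were seen. Procedures were tested on simulated data, where all 7 checks gave the planted answer. Computations used Python 3.11.15, numpy 2.4.6, pandas 2.3.3 and scipy 1.17.1.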

Additional observations from a re-analysis of the deposited data

How the results depend on the processing

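With 14 alternatives, 67 of 135 recomputed values were called the same as the main value and 68 moved. Shares and densities were judged by counting error, and median heights and density ratios by library spread. The number of members was judged by a fixed fold limit. The median log2 ratio of heights was judged by its SD across members, a wide limit under which a change of sign counted as the same. Number of members was 4268, but 2265 with the shorter lists and 2529 when the whole DHS had to lie in 1 part, and without either replicate it was 7533 to 8065. The share in coding sequence, 49.0%, was 47.1% with 50% overlap, 46.2% at 2 kb from starts, 35.2% for whole DHSs, 60% with basic transcripts, 47.3% with UTRs first, and 52.8% to 54.4% without either replicate. Coding density, 74.1 per Mb, was 59.0 with 50% overlap, 39.2 with the shorter lists, 63.3 at 2 kb, 68.6 with starts of every gene type, 31.5 for whole DHSs and 141 to 155 without either replicate. Density in 5′ UTRs, 123 per Mb, was 89.4 with the shorter lists, 96.4 with every start, 41.9 for whole DHSs and 180.2 to 182 without either replicate. Density in 3′ UTRs, 43.0 per Mb, was 36.9 with 50% overlap, 22.6 with the shorter lists, 36.9 for whole DHSs and 71.1 to 72.3 without either replicate. The median coding height, 1.42, was 1.73 with 50% overlap, 1.15 from replicate 2, 2.56 with the shorter lists, and 0.737 to 0.883 without either replicate.

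The ratio of coding to intron density was 2.64, and 2.42 with 50% overlap, 2.78 with the shorter lists, 2.37 at 2 kb, 2.55 with every start, 1.19 for whole DHSs, 2.59 with basic transcripts and 2.83 to 2.86 without either replicate. At equal GC the ratio was 0.692, and 0.328 for whole DHSs and 0.802 to 0.951 without either replicate; the alternatives for both ratios were chosen after seeing the data. The first stayed above 1 and the second below 1 under each alternative run. Exons are short, so the whole-DHS rule removes more coding than intron DHSs by construction. For the other moves the cause was not tested. No paired analysis was possible because both samples belong to 1 group. With 2 libraries, differences between animals and between preparations cannot be told apart.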

Other observations

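Further gene lists and families held exonic DHSs at shares on both sides of the 15.8% of all autosomal protein-coding genes. Above it were 9 of 39 Hox genes (23.1%), which pattern the body axis, 10 of 43 collagen genes (23.3%), and 7 of 24 chromatin and Polycomb regulators (29.2%). Fox genes had 11 of 41 (26.8%), a family taken after values were seen. Below it, protocadherin genes had 7 of 66 (10.6%) and histone genes of the clustered Hist names 2 of 67 (2.99%). Housekeeping genes were above it, with 3 of 14 (21.4%). No interval is given for these list shares. In a list as small as that of the 14 housekeeping genes, a gene fewer would move the share below 15.8%.

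Rarer motifs were present in a few coding members. The REST letters were present in 4 coding members (0.191%, 0.0743 to 0.490), with median heights of 4.34 and 1.80, against 1.42 and 1.15 for coding members without them, and in 0.00994% of DHS-free coding windows. Extl3, a gene of heparan sulfate synthesis, held one in a DHS of heights 3.55 and 1.58. RFX letters were present in 4 coding members (0.191%), with medians of 4.61 and 2.02, and in 0.171% of DHS-free coding windows, about the same share. With 4 members each, these medians are descriptions only.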
